A study of Mus musculus with 2 samples.

Results

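Oligodendrocyte precursors caught in the cell cycle were picked from single-cell RNA-seq of the ventral parafacial region, a brainstem area that takes part in the control of breathing. A cell was kept when its barcode held at least 800 genes, at most 50 hemoglobin UMIs (unique molecular identifiers, each standing for 1 captured transcript) and at most 20% mitochondrial UMIs. It was a member when Pdgfra, C1ql1 and Cspg4, genes of oligodendrocyte precursors, summed to at least 2 UMIs and Top2a, Mki67, Cdk1 and Hist1h2ap, genes of dividing cells, summed to at least 4. Cells of neighbouring types were kept out by limits on the committed precursor genes Gpr17, Bmp4 and Neu4 (at most 2 UMIs), the myelin genes Mog and Mag (at most 1), the fibroblast gene Dcn (0), and the microglial and endothelial genes C1qa, C1qb, Cldn5 and Flt1 (at most 2). The rule found 163 members among 12395 cells that passed the filters, 28 of 3345 in the untreated library and 135 of 9050 in the 4OH-tamoxifen library. The same limits with a cycling sum of 0 or 1 gave 322 and 1094 non-cycling precursors, and a sum of 2 or 3 gave 17 and 43 cells in between.

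Oligodendrocyte precursors carry the platelet-derived growth factor receptor PDGFRα and are among the few cells of the brain that go on dividing after birth. In the early postnatal brain their divisions supply the cells that leave the cycle, switch on Gpr17 and Bmp4, and become myelin-forming oligodendrocytes. A dividing cell licenses its origins in G1 by loading MCM helicases, copies its DNA in S phase with PCNA and the enzymes that make nucleotides, and then, in G2 and mitosis, transcribes the cyclin B, kinetochore and spindle genes that separate the chromosomes.

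Both libraries came from wild type C57BL/6J mice of both sexes at 10 days of age. Each pooled the tissue of 8 animals, 4 male and 4 female, and was captured with 10X Genomics 3′ chemistry. The animals of 1 library had received 4OH-tamoxifen, the active form of the drug that switches on CreER transgenes, at 0.2 mg per day for 3 days, and those of the other were untreated. No transgene is named for either group. With 1 library per condition, treatment, pool of animals and the batch named in the labels (1 batch per library) cannot be told apart, and no difference between the libraries was tested.

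The files held 28692 genes and 3767 and 10241 barcodes, with 18496942 and 34704167 UMIs, in the untreated and the 4OH-tamoxifen library. The members summed to 111311 and 350928 UMIs. Their median depth was 3741 and 2372 UMIs per cell, against 2939.5 and 1813 in the non-cycling precursors, and 40 barcodes, none of them a member, occurred in both libraries. Members held a median of 1989 and 1393 genes and 6.20% and 7.24% mitochondrial UMIs. No barcode was removed as a doublet: Scrublet marked 0 of 28 and 7 of 135 members, beside 1.17% and 5.35% of all cells that passed the filters. Levels are CPM, the UMIs of a gene in the summed cells of 1 population and library, scaled to the same total for each. All 95% intervals are exact and cover counting error only.

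The genes of the rule are described without a test, since they chose the members. Top2a, the topoisomerase that untangles copied DNA, stood at 665 and 949 CPM in the members of the untreated and the 4OH-tamoxifen library. Mki67, which codes for the proliferation antigen Ki-67, stood at 602 and 692 CPM, and Cdk1, the kinase that drives mitosis, at 305 and 265 CPM. Hist1h2ap, a histone H2A gene, stood at 979 and 1265 CPM; it has near-identical copies, and reads that fit several copies may be lost. In the non-cycling precursors none of the 4 genes exceeded 19.9 CPM in either library. Most members held several of these transcripts: 15 of 28 and 69 of 135 had UMIs of 3 of the 4 genes, and 9 and 26 of all 4.

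A UMI was found for Top2a in 82.1% and 90.4% of members, for Mki67 in 82.1% and 77.0%, for Cdk1 in 71.4% and 44.4%, and for Hist1h2ap in 82.1% and 76.3%. Free RNA was gauged in mature oligodendrocytes, cells with at least 3 UMIs of Mog and Mag, which should not divide. There Top2a was found in 1.86% of 700 and 1.76% of 2211 cells and Hist1h2ap in 5.14% and 6.02%, at median depths of 8686 and 5893 UMIs that exceed those of the members. The members were chosen by these genes, so their shares are set beside this background as a description and nothing is read from the gap.

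The precursor label was checked against genes outside the rule. Olig1, Olig2 and Sox10, the transcription factors that define the oligodendrocyte lineage, summed to at least 3 UMIs in 25 of 28 and 125 of 135 members. Among dividing cells chosen for no UMI of Pdgfra, C1ql1 or Cspg4, 1 of 13 and 11 of 61 reached that sum. Olig1 was also found in 93.0% and 92.6% of the mature oligodendrocytes, so these genes mark the lineage and not precursors alone. Ptprz1, a receptor phosphatase of precursors, stood at 1536 and 1234 CPM in members, and Lhfpl3, a further precursor gene, at 638 and 450 CPM. Against the label stood 2 untreated members that met the rule through Cspg4 alone. They held 0 UMIs of Pdgfra, C1ql1 and Sox10, 1 UMI each of Olig1, and 48 and 67 UMIs of a pericyte list (Vtn, Rgs5, Higd1b, Pdgfrb, Abcc9 and Kcnj8). In the 4OH-tamoxifen library 2 members held 34 and 7 UMIs of that list together with UMIs of Pdgfra, C1ql1 and Olig1. Values that rest on these 4 cells are given with and without them below.

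Members also held transcripts of other cell types. The microglial list stood at 225 and 191 CPM in members, and the endothelial list at 108 and 54.1 CPM with Pecam1 at 0 UMIs in both libraries. Pericyte genes stood at 1078 and 125 CPM, mostly from the 4 cells above. Astrocyte genes reached 1653 and 2787 CPM, and neuronal genes 629 and 1368 CPM with Slc17a6 at 0 UMIs in both libraries. At least 3 UMIs of astrocyte genes were found in 82.1% and 88.9% of members, close to the 83.7% and 84.2% of all cells that passed the filters. The pericyte list stood at 636 and 295 CPM over all those cells. The non-cycling precursors held more of the astrocyte and neuronal genes than the members, 4458 and 4181 CPM of astrocyte genes and 1548 and 2557 CPM of neuronal genes.

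Across 7238 genes with a mean of at least 20 CPM, 266 (3.68%) were at least 2-fold higher in members than in non-cycling precursors in both libraries and 48 (0.663%) at least 2-fold lower, with 10 CPM added to both levels. The rule used this contrast, so the counts describe the members and nothing is read from them. The median log2 ratio over all 7238 genes was 0.03 without and 0.02 with 4OH-tamoxifen. Genes were ranked by this ratio with 10 CPM added. Among those of at least 50 CPM, the highest ranks included Prc1, Nusap1, Cdca8, Spc25, Ube2c, Cenpf, Hmmr, Birc5, Cenpe, Cenpa and Cks2. Of these, all but Cks2, a partner of cyclin-dependent kinases, and Ube2c, an enzyme that marks mitotic cyclins for destruction, belong to the centromere, the kinetochore or the spindle.

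Short motifs near the starts of mitotic and of replication genes are shown here, to set the sequences beside the levels, for a mitotic gene, for the topoisomerase of the rule and for a pair of MCM helicase subunits. Each sequence is the 250 bases before the RefSeq start on GRCm38.p6, read 5′ to 3′ on the gene's strand. Capitals mark the cell cycle homology region TTTGAA, the CCAAT box, and the E2F letters TTTCCCGC, TTTCGCGC, TTTGCCGC or TTTGGCGC, each on either strand and with overlaps allowed. The windows are chr2:164769679-164769928 on the plus strand for Ube2c, chr11:99024190-99024439 on the minus strand for Top2a, chr1:128359706-128359955 on the minus strand for Mcm6 and chr8:75109259-75109508 on the plus strand for Mcm5.
Ube2c: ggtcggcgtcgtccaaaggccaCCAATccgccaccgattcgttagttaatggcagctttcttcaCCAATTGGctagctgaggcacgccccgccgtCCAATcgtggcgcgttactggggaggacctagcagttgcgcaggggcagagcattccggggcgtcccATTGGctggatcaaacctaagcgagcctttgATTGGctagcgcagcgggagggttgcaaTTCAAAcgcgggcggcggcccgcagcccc
Top2a: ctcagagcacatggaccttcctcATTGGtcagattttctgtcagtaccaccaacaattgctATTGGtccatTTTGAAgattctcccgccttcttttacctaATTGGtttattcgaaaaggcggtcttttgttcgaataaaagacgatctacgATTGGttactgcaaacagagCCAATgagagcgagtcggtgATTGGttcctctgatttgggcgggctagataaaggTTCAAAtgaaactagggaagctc
Mcm6: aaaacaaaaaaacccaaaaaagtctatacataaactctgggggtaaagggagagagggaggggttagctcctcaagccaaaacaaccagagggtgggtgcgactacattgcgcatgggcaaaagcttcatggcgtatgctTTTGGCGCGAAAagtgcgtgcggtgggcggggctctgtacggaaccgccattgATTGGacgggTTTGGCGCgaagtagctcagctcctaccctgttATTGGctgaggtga
Mcm5: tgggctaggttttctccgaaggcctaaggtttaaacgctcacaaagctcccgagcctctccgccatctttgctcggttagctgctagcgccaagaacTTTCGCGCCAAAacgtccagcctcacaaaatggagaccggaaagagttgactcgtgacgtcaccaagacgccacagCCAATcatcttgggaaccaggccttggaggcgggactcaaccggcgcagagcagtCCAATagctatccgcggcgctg
Ube2c and Top2a each held 6 CCAAT boxes in this window, with 1 and 2 TTTGAA motifs and no E2F letters. Mcm6 and Mcm5 held 2 CCAAT boxes each, no TTTGAA, and 3 and 2 E2F matches that partly overlap.

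Counted over windows from 250 bases before to 50 after the start, TTTGAA was present in 7 and a CCAAT box in 9 of the 11 windows of the genes named above, and E2F letters in none. Over all 27025 windows of the table the shares were 18.1% for TTTGAA, 37.9% for the CCAAT box and 2.32% for the E2F letters. Among replication licensing genes 9 of 15 windows held E2F letters and 5 held TTTGAA. Of the 26 windows of DNA synthesis genes 5 held E2F letters and 2 held TTTGAA. Spindle and cytokinesis genes held TTTGAA in 18 and E2F letters in 2 of 24 windows, and centromere genes in 10 and 3 of 23. A CCAAT box was in 11 of the licensing, 14 of the DNA synthesis, 14 of the spindle and 16 of the centromere windows. In the precursor identity list, TTTGAA was in 1 and a CCAAT box in 4 of 12 windows. These matches describe letters in a window and are not binding sites.

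Replication genes were higher in members. Of the licensing and firing list, 8 of 13 genes that passed the filter were past 2-fold in both libraries, and of the DNA synthesis and nucleotide supply list 18 of 25, with median log2 ratios of 1.31 and 1.40 for the first and 1.54 and 1.40 for the second in the untreated and the 4OH-tamoxifen library. Summed over each list, members stood 3.39-fold (2.75 to 4.16) and 3.56-fold (3.14 to 4.03) above the non-cycling precursors for licensing, and 4.13-fold (3.60 to 4.72) and 3.81-fold (3.49 to 4.15) for DNA synthesis.

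Within licensing, the helicase subunits Mcm5, Mcm6 and Mcm7 had overlapping intervals. Mcm5 stood at 80.9 and 74.1 CPM against 21.9 and 19.5, a ratio of 3.70 (1.51 to 8.30) and 3.804 (2.25 to 6.32). The Mcm6 ratio was 2.89 (1.33 to 5.80) and 2.74 (1.61 to 4.54). Dbf4, the activating subunit of the kinase that fires origins, stood further apart with 71.9 and 119.7 CPM against 3.802 and 10.6, a ratio of 18.9 (5.06 to 85.8) and 11.3 (6.67 to 19.4). Orc6, of the origin recognition complex, and Tipin, which protects stalled forks, had ratios of 2.82 and 2.78 and of 2.98 and 3.05 in the same order.

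Among the synthesis genes, some that supply nucleotides stood well apart. Rrm2, the cycle-regulated subunit of ribonucleotide reductase, stood at 377 and 225 CPM against 19.0 and 11.95, a ratio of 19.8 (11.4 to 35.7) and 18.8 (12.03 to 30.3). Its partner Rrm1 had a ratio of 5.29 and 6.56. Tk1, the thymidine kinase of S phase, stood at 135 and 128 CPM against 11.4 and 5.31. Pcna, the sliding clamp of the polymerases, was 3.85-fold (2.23 to 6.43) and 3.97-fold (2.74 to 5.72) higher, and Lig1, which joins the new fragments, 5.25-fold and 3.57-fold.

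**Figure D1:**
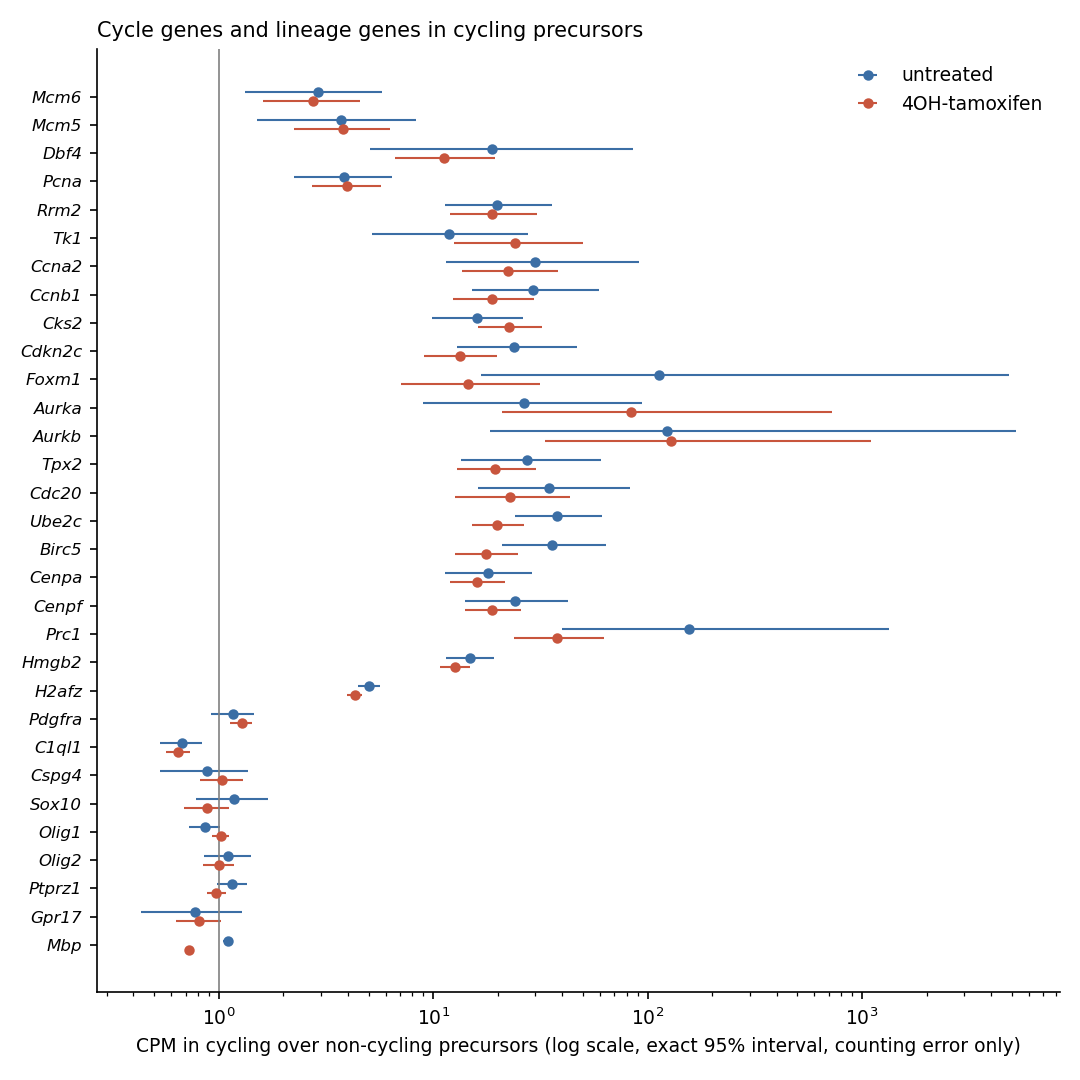
Ratio of CPM in cycling to CPM in non-cycling precursors (log scale) for cycle and lineage genes in the untreated (blue) and the 4OH-tamoxifen library (red). Bars are exact 95% intervals for counting error only, and the line marks a ratio of 1. From Mcm6 to H2afz every cycle gene lies above 1 in both libraries, while Pdgfra to Mbp lie near 1, with C1ql1 below it in both.

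The cyclins and their partners were mostly higher, 12 of 17 past 2-fold. Ccnb1, cyclin B1, stood at 359 and 251 CPM against 12.4 and 13.3, a ratio of 29.1 (15.2 to 59.3) and 18.9 (12.4 to 29.6). Ccna2, the cyclin of S phase and G2, had a ratio of 29.9 and 22.4, and Cks2 of 15.97 and 22.6. Not every regulator of the cycle moved: Ccnd1, cyclin D1 of the G1 phase, had a ratio of 1.37 (0.949 to 1.93) and 1.06 (0.827 to 1.35).

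Of the CDK inhibitors and the RB family, which hold the cycle back, 2 of 6 genes were past 2-fold higher and 0 lower. Cdkn2c, coding for p18INK4c, stood at 341 and 242 CPM in members against 14.3 and 18.1, and Cdkn2d, coding for p19INK4d, at 270 and 174 against 56.1 and 39.4. Both are inhibitors of CDK4 and CDK6. By contrast Cdkn1b, coding for p27, and Cdkn1a, coding for p21, had few UMIs, with ratios of 1.89 (0.643 to 4.62) and 1.37 (0.708 to 2.46) for Cdkn1b. Among the E2F, MYB and FOXM1 factors 3 of 7 genes were past 2-fold. Foxm1, the factor that drives G2 and mitotic genes, held 12 and 27 UMIs in members against 1 and 12 in the far larger non-cycling populations, a ratio of 113 (16.8 to 4849) and 14.5 (7.10 to 31.4).

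Most genes of mitosis were higher in members. All 12 mitotic kinase and spindle checkpoint genes that passed the filter were past 2-fold in both libraries, as were 23 of 25 centromere and kinetochore genes and 22 of 25 spindle and cytokinesis genes. The median log2 ratios of these lists were 2.95 and 2.58, 3.04 and 2.68, and 2.78 and 2.37 in the same order. Summed, the kinase list was 12.6-fold (10.1 to 15.7) and 10.8-fold (9.34 to 12.5) and the centromere list 14.7-fold (12.9 to 16.8) and 12.1-fold (11.1 to 13.2) higher in members. The spindle list was 4.39-fold in both libraries (3.92 to 4.91 and 4.09 to 4.72), close to the DNA synthesis list.

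Aurkb, the kinase of the chromosomal passenger complex, held 13 and 40 UMIs in members against 1 and 2 in non-cycling precursors, a ratio of 123 (18.5 to 5222) and 129 (33.4 to 1100). Its partners Birc5 (survivin) and Cdca8 (borealin) stood at 611 and 390 CPM and at 404 and 319 CPM. Against the non-cycling cells this was a ratio of 35.7 and 17.6 for Birc5 and of 30.4 and 30.0 for Cdca8. Bub3, a checkpoint protein also present outside mitosis, had a small ratio of 2.94 and 3.28.

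At the centromere, Cenpf stood at 458 and 527 CPM against 19.0 and 27.9, and Cenpa, the histone variant that marks the centromere, at 512 and 462 against 28.5 and 28.8. Prc1, which bundles the midzone microtubules that cells need to divide, came first in the ranking by ratio with 10 CPM added to both levels. It held 33 and 129 UMIs against 2 and 22, a ratio of 156 (39.9 to 1341) and 37.7 (23.9 to 62.3). Nusap1, a spindle-binding protein, had ratios of 39.2 and 42.1, and Racgap1, which works with Prc1 at the midzone, of 15.8 and 15.4.

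The anaphase-promoting complex divided by role: 6 of 15 genes were past 2-fold, its list median was 0.07 and 0.69, and its summed ratio of 2.77 (2.48 to 3.10) and 2.58 (2.41 to 2.77) lay below those of both replication lists. The cycle-regulated activators and partners were high. Ube2c stood at 898 and 627 CPM against 23.8 and 31.4, and Cdc20, the activator of anaphase, at 296 and 151 against 8.55 and 6.64. Ube2s, which extends ubiquitin chains, had the highest level, 1177 and 992 CPM against 289 and 264. The 6 genes past 2-fold were Ube2s, Ube2c, Cdc20, Fzr1, Fbxo5 and Espl1, so no core subunit of the list (Cdc16, Cdc23, Cdc26, Cdc27 and Anapc genes) was among them.

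Chromosome structure genes were past 2-fold in 14 of 18. Hmgb2, a chromatin protein of dividing cells, stood at 1428 and 1274 CPM against 96.0 and 101, a ratio of 14.9 (11.5 to 19.3) and 12.6 (10.7 to 14.9). The condensin subunits Smc2 and Smc4 had ratios of 14.5 and 11.6 and of 11.5 and 11.3. H2afz, a histone variant, was among the most abundant cycle genes at 3872 and 2813 CPM against 768 and 652.

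Most transcripts of the histone genes tied to replication lack the poly(A) tail that 3′ capture uses. Of 65 such genes, 8 passed the filter and 4 were past 2-fold. Hist1h1b, a linker histone, held 14 and 29 UMIs against 2 and 3, a ratio of 66.2 (15.2 to 599.8) and 62.2 (19.3 to 319). Hist1h2bc, in contrast, had ratios of 0.720 (0.404 to 1.20) and 0.872 (0.667 to 1.13). Of the p53 targets, genes that a damaged or arrested cell turns on, 0 of 6 were past 2-fold. Over all genes 3.68% were called higher and 0.663% lower, so nothing is read from this count. Bax had ratios of 1.16 (0.800 to 1.63) and 0.962 (0.747 to 1.22).

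**Figure D2:**
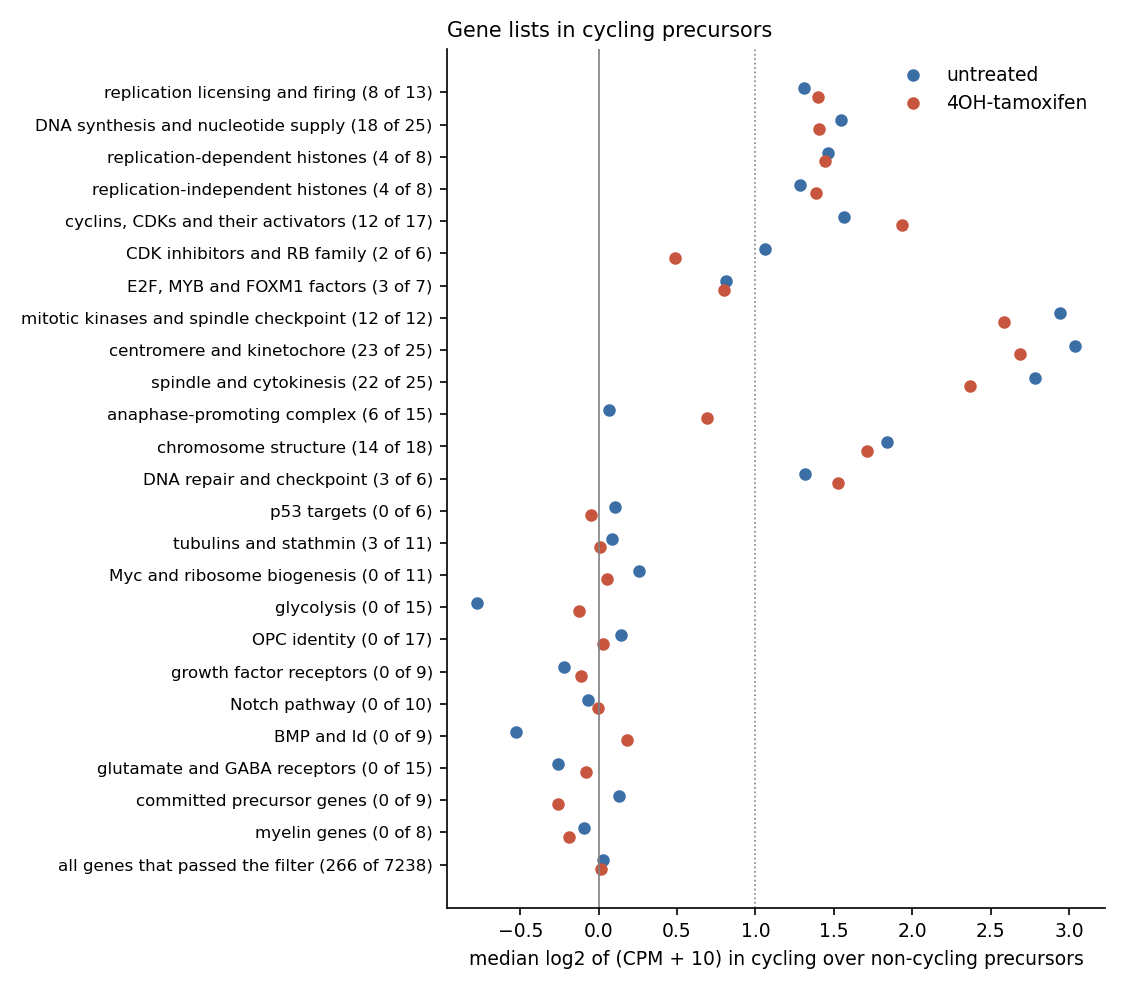
Median log2 ratio of (CPM + 10) in cycling over non-cycling precursors for each gene list in the untreated (blue) and the 4OH-tamoxifen library (red), without the genes of the rule; brackets give the genes at least 2-fold higher in both libraries of those that passed the filter. The lists of mitosis lie between 2.37 and 3.04, apart from the anaphase-promoting complex, the replication lists between 1.31 and 1.54, and precursor identity at 0.14 and 0.03.

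Tubulins were split by gene: Tubb5, Tuba1b and the microtubule regulator Stmn1 were past 2-fold, with Tubb5 at 1644 and 1593 CPM against 585 and 524. Tuba1a, a tubulin of neural cells, stood at 2435 and 1553 against 2649 and 1733, though near-identical tubulin genes can share reads. Among Myc and ribosome biogenesis genes 0 of 11 were past 2-fold, with Ncl at ratios of 1.40 (1.01 to 1.91) and 1.08 (0.886 to 1.31). Of 15 glycolysis genes 0 were higher and Hk1, a hexokinase, was lower. With 3.68% of all genes called higher and 0.663% lower, nothing is read from the counts of these 2 lists.

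Precursor identity genes stood at nearly the same level in cycling and non-cycling cells. Both were chosen by the same precursor sum, so the values are descriptions. None of the 17 genes of the list, which leaves out those of the rule, passed 2-fold in both libraries, and its summed ratio was 1.06 (0.997 to 1.13) and 1.02 (0.986 to 1.06). The median log2 ratio was 0.14 and 0.03, and went below 0 in at least 1 library under several other settings. Olig1 had ratios of 0.859 (0.727 to 1.01) and 1.02 (0.931 to 1.12), Olig2 of 1.11 (0.854 to 1.42) and 1.00 (0.848 to 1.18), and Sox10 of 1.17 (0.785 to 1.70) and 0.884 (0.689 to 1.12). Cspg5 stood at 1860 and 1448 CPM against 1667 and 1352.

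Genes of the rule itself differed among one another. Pdgfra stood at 799.6 (642 to 984) and 966 (866 to 1075) CPM against 686 and 756, a ratio of 1.17 (0.924 to 1.45) and 1.28 (1.13 to 1.44). C1ql1, a secreted C1q-like protein, was lower in members, at 782 and 718 CPM against 1165 and 1108, a ratio of 0.671 (0.533 to 0.834) and 0.648 (0.567 to 0.738). Cspg4, the NG2 proteoglycan, had a ratio of 0.878 (0.533 to 1.38) and 1.04 (0.819 to 1.30). As these sums chose both populations, the values are descriptions.

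In the growth factor receptor, Notch and Wnt lists 0 of 9, 0 of 10 and 0 of 5 genes passed 2-fold in either direction. Over all genes 3.68% were called higher and 0.663% lower, so lists of this size would hold few calls at the shares of all genes and nothing is read from these counts. Notch1, the receptor that holds precursors back from differentiation, stood at 98.8 and 171 CPM against 79.8 and 84.1, a ratio of 1.24 (0.595 to 2.33) and 2.03 (1.49 to 2.73). Of the BMP and Id list 1 of 9 genes, Id4, was called lower, with 1 and 2 UMIs in members. This count lay between 0 and 2 under the other settings. Without the cells that carried at least 10 UMIs of astrocyte and neuron genes, Id4 had 0 UMIs in the members of both libraries against 2 and 12 in non-cycling precursors. Id2, an inhibitor of helix-loop-helix factors, had ratios of 0.564 (0.403 to 0.770) and 0.781 (0.642 to 0.942). Among receptors for glutamate and GABA, through which neurons contact precursors, Gria2 stood at 332 and 504 CPM against 400 and 513 and Grm5 at 270 and 234 against 171 and 181, while 2 of 15 genes, Gabrb1 and Grin1, were called lower. This count lay between 0 and 4 under the other settings and was 0 without the cells rich in astrocyte and neuron genes, where the ratio was 0.453 (0.0109 to 2.87) and 0.489 (0.129 to 1.33) for Gabrb1 and 0.510 (0.0122 to 3.28) and 0.463 (0.0918 to 1.45) for Grin1.

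Differentiation genes are given as levels, since the rule caps Gpr17, Bmp4 and Neu4, and Mog and Mag, in cycling and non-cycling precursors alike. Leaving out these genes, 0 of 9 of the committed list and 0 of 8 of the myelin list were past 2-fold, from which nothing is read. Bcas1, of early oligodendrocytes, had ratios of 1.09 (0.698 to 1.64) and 0.828 (0.655 to 1.04). Mbp, myelin basic protein, stood at 12299 and 11173 CPM in members, and at least 3 UMIs of the myelin list were found in all 28 and 135 members as in 3345 of 3345 and 9047 of 9050 cells of any kind. What share of these myelin transcripts came from the members themselves was not tested.

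The 12 genes with the smallest ratio by the ranking were Snhg11, Syt4, Stmn2, Ache, Meg3, Clstn3, Gfap, Thy1, Snhg20, Hk1, Gaa and 6330403K07Rik. Several mark neurons, such as Stmn2 and Syt4, and Gfap marks astrocytes. Meg3, a long non-coding RNA abundant in neurons, stood at 692 and 875 CPM in members against 1924 and 2336, a ratio of 0.360 (0.283 to 0.452) and 0.374 (0.333 to 0.420). Cells that carried at least 10 UMIs of the astrocyte and neuron lists were 9 of 28 and 58 of 135 members and 136 of 322 and 459 of 1094 non-cycling precursors. Such cells held 83.3% and 74.7% of the list UMIs of the non-cycling precursors and 52.0% and 67.8% of those of the members. Without them 41 genes were called lower, of which 3 were among the 48, and 284 higher, of which 215 were among the 266. With cells thinned to 2000 UMIs, 59 genes were called lower and 10 of them were among the 48. Without the cells rich in astrocyte and neuron genes, 31 of the 48 were still past the filter on CPM. Of the 48, 37 were still lower in both libraries and 13 had a plain CPM ratio of at most 0.5 in both. Among these was 6330403K07Rik, at 0.294 and 0.404. Stmn2 went from 0.294 (0.139 to 0.547) to 2.33 (1.03 to 4.81) in the untreated library. In the 4OH-tamoxifen library Stmn2 went from 0.334 to 0.513 (0.304 to 0.819). The cells were left out by lists that hold 4 of the 48 genes, and their part in the result was not tested further. Without them the ratio of Meg3 was 1.17 (0.875 to 1.55) and 0.910 (0.735 to 1.12). C1ql1 stayed below 1, at 0.602 (0.450 to 0.790) and 0.608 (0.508 to 0.722), and Pdgfra had ratios of 0.927 (0.675 to 1.25) and 1.25 (1.06 to 1.46).

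Members differed among themselves in how much of each phase they carried. Summed over the licensing and synthesis lists, which are replication genes, a member held a median of 4.45 UMIs per 1000 UMIs in the untreated library, from 1.10 to 8.15, and 3.09 in the 4OH-tamoxifen library, from 0 to 9.07. Over the 4 mitosis lists (kinases, anaphase-promoting complex, centromere, spindle) the median was 12.2, from 5.94 to 31.5, and 11.0, from 2.53 to 28.3. The measures ran against each other: 10 of 28 members lay above the median of replication alone and 10 above that of mitosis alone, with 4 above both. In the 4OH-tamoxifen library 49 lay above the replication median alone, 49 above the mitosis median alone and 18 above both. Pearson's r was −0.512 over 28 and −0.510 over 135 cells, a description, as both measures of a cell share its depth and sum of UMIs.

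**Figure D3:**
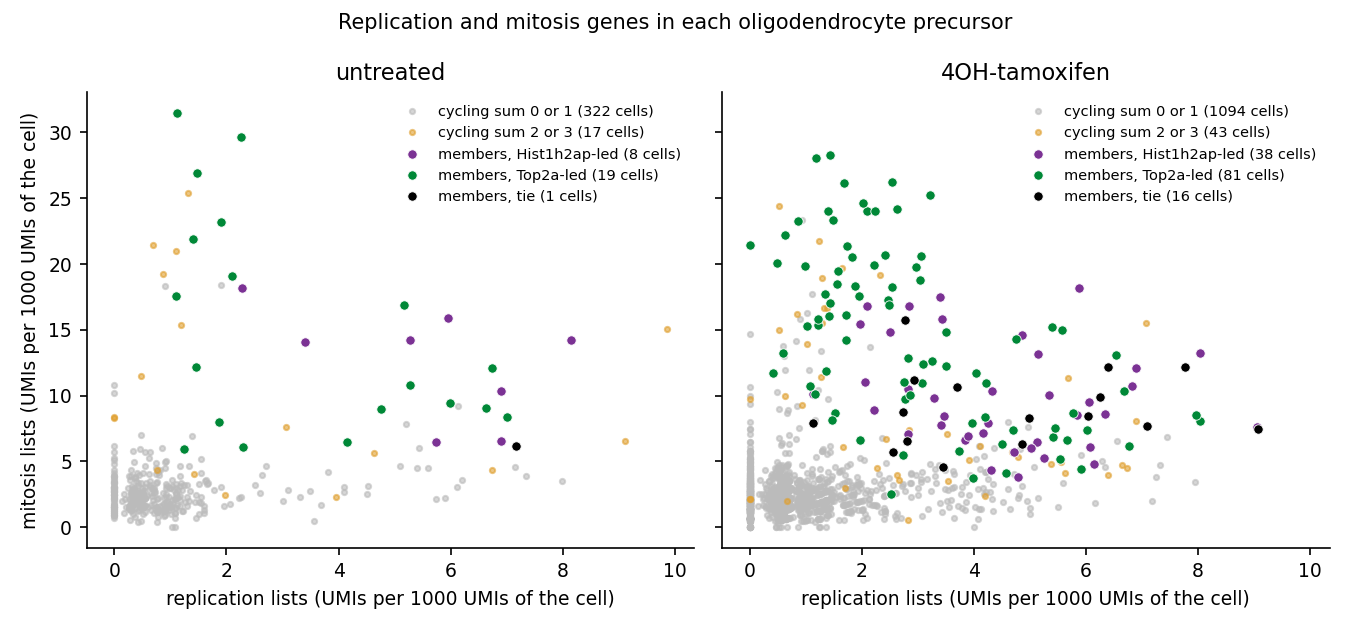
UMIs of the replication lists (x axis) and of the mitosis lists (y axis) per 1000 UMIs in each oligodendrocyte precursor of the untreated (left) and the 4OH-tamoxifen library (right); points are single cells, coloured by cycling sum and, for members, by which gene of the rule led. Members high in mitosis genes mostly lie low in replication genes, and non-cycling cells gather near the origin.

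The members were also split by which gene led the cycling sum. The split uses the genes that chose the members, so its values are descriptions and nothing is read from them. Hist1h2ap exceeded the sum of Top2a, Mki67 and Cdk1 in 8 of 28 members (28.6%, 13.2 to 48.7) and 38 of 135 (28.1%, 20.8 to 36.5), was exceeded by it in 19 and 81, and tied in 1 and 16. The groups are a range and not types, with 4 and 39 members within 1 UMI of the boundary. The licensing list stood at 0.465 (0.322 to 0.673) and 0.728 (0.585 to 0.908) times its level in the Hist1h2ap-led cells when Top2a, Mki67 and Cdk1 led, and the synthesis list at 0.715 (0.560 to 0.916) and 0.574 (0.493 to 0.670) times. Spindle genes stood at 1.21 (0.971 to 1.52) and 1.61 (1.40 to 1.85) times, and centromere genes at 1.14 (0.940 to 1.38) and 1.47 (1.30 to 1.66) times. In the untreated library, with 8 cells in one group, these mitosis intervals included 1.

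Single genes varied around the lists. Cdc20, which acts at anaphase, stood at 67.5 and 41.0 CPM in Hist1h2ap-led members and 389 and 215 in the others, a ratio of 5.76 (1.47 to 49.7) and 5.24 (1.91 to 20.03). Ccnb1 differed in the same direction, 2.60-fold (1.02 to 8.51) and 2.38-fold (1.30 to 4.70). Cenpf had ratios of 2.00 (0.929 to 4.92) and 3.76 (2.33 to 6.42). Other mitosis genes ran the other way in the untreated library: Nusap1 had ratios of 0.302 (0.134 to 0.670) and 1.43 (0.881 to 2.39), and Cit, a kinase of cytokinesis, of 0.279 (0.104 to 0.721) and 1.23 (0.633 to 2.52). Among S phase genes Hist1h1b stood at 0.279 (0.0797 to 0.916) and 0.423 (0.183 to 0.970) times, Pcna at 0.991 (0.368 to 3.09) and 0.503 (0.257 to 0.990) times.

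**Figure D4:**
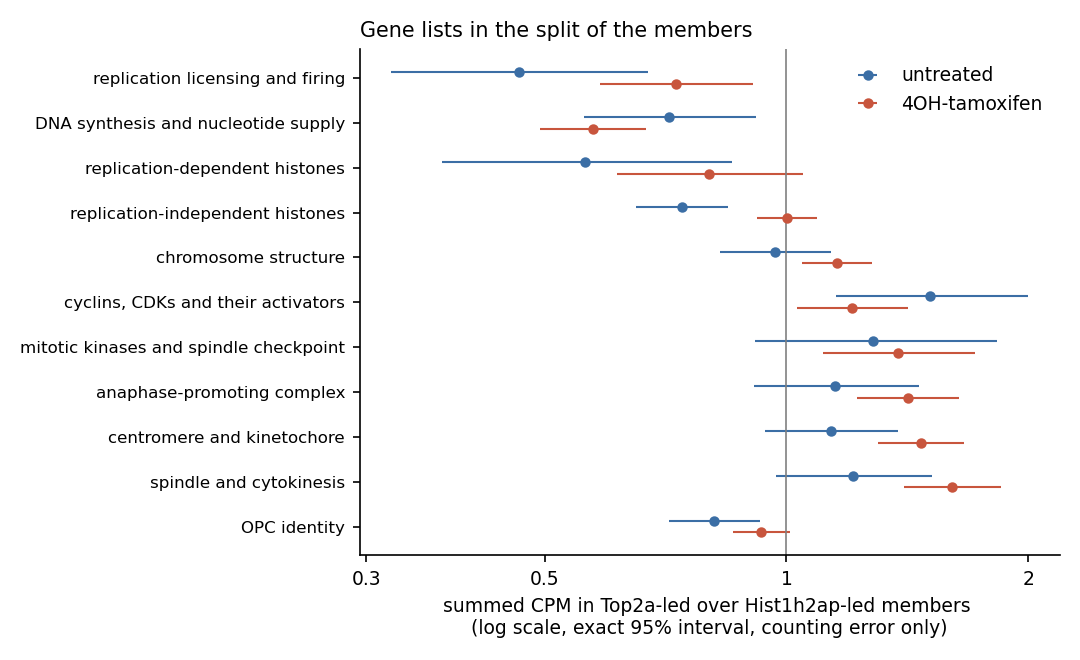
Summed CPM of each gene list in members led by Top2a, Mki67 and Cdk1 over that in members led by Hist1h2ap (log scale), in the untreated (blue) and the 4OH-tamoxifen library (red); bars are exact 95% intervals for counting error only. Licensing and synthesis lie below 1 and the cyclins above 1 in both libraries, and the mitosis lists lie above 1 in the 4OH-tamoxifen library; the split uses genes of the rule, so this is a description.

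Cells on both sides of the threshold held transcripts of the cycle. Members with a cycling sum of exactly 4 held 6659.7 and 9830.3 CPM of the mitosis lists (5 and 18 cells), and cells with a sum of 3 held 18410.5 and 10676 CPM (6 and 18 cells). For the replication lists the levels were 3852 and 3516 CPM at a sum of 4 and 1775 and 2900 CPM at a sum of 3. Among non-cycling precursors 15 of 322 (4.66%) and 80 of 1094 (7.31%) reached the members' median for replication genes, and 2 of 322 and 12 of 1094 reached that for mitosis genes. These cells were chosen for at most 1 UMI of the cycle genes of the rule, so the shares are descriptions.

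Cycling cells made up 7.63% of all oligodendrocyte precursors in the untreated library (28 of 367, 5.13 to 10.8) and 10.6% in the 4OH-tamoxifen library (135 of 1272, 8.97 to 12.4). With each cell thinned to 2000 UMIs and shallower cells left out, the shares were 6.67% (27 of 405) and 18.5% (97 of 524). Thinned counts also pass the upper limits of the rule more easily, so other cells entered. The untreated precursors thus rose from 367 to 405, though 36 of the 367 were too shallow. Over all settings tried, the 4OH-tamoxifen share ran from 7.86% to 24.3%. Thinning left out 708 of 1094 non-cycling but 27 of 135 cycling cells of the 4OH-tamoxifen library, against 32 of 322 and 2 of 28 in the untreated library. Levels over all precursors, which need no threshold, differed between gene sets. The 4 cycle genes of the rule stood at 302 (272 to 334) and 493 (467 to 520.0) CPM, the replication lists at 1367 (1302 to 1434) and 1336 (1293 to 1381) CPM, and the mitosis lists at 4209 (4095 to 4326) and 4115 (4039 to 4192) CPM. The genes of the rule thus stood higher in the 4OH-tamoxifen library, and the replication and mitosis lists had overlapping intervals.

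Members held 9.13% and 12.97% of the UMIs of all precursors. They held 77.2% and 83.5% of the UMIs of the 4 cycle genes, a share that the rule itself sets and from which nothing is read. Of the UMIs of the replication lists members held 26.5% and 33.9%, and of those of the mitosis lists 32.2% and 40.2%. As the members were chosen by cycle genes, these shares are descriptions. Of all cells in the data with a cycling sum of at least 4, members were 28 of 78 (35.9%) and 135 of 286 (47.2%).

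Along the lineage the share of cycling cells was lowest where committed genes were highest. Over cells binned by their sum of Gpr17, Bmp4 and Neu4, the share with a cycling sum of at least 4 was 8.64% at 0 UMIs, 6.83% at 1 to 2, 10.0% at 3 to 9 and 1.01% (2 of 199) at 10 or more in the untreated library. In the 4OH-tamoxifen library it was 10.4%, 10.8% and 4.64% in the first 3 bins and 0 of 371 in the last, which by the exact binomial interval allows a share of up to 0.989%. After thinning, the bin of 3 to 9 UMIs stood at 2.23% and 2.82%. This was below the bins of 0 (7.10% and 19.3%) and 1 to 2 UMIs (6.31% and 17.8%) in both libraries. Thinning also lowered the sums that set the bins, so the thinned bins hold other cells. In the untreated library the bin of 3 to 9 UMIs went from 229 to 314 cells and the last from 199 to 80. Pdgfra in the bin of 3 to 9 UMIs went from 635 to 226 CPM there, and from 249 to 147 CPM in the 4OH-tamoxifen library. The first 2 bins hold cells with the precursor sum of the rule, and the later ones also cells without it. With that sum required in every bin, chosen after seeing the data, the share at 3 to 9 UMIs was 11.4% (7.39 to 16.7) of 201 cells and 8.08% (5.69 to 11.1) of 433, and at 10 or more 1.32% of 152 and 0 of 158, which allows up to 2.31%. On that basis the thinned shares at 3 to 9 UMIs were 3.27% (1.07 to 7.46) and 8.26% (4.97 to 12.7). The cycling genes and the bins were both counted as UMIs, so deeper cells reach higher values of each.

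**Figure D5:**
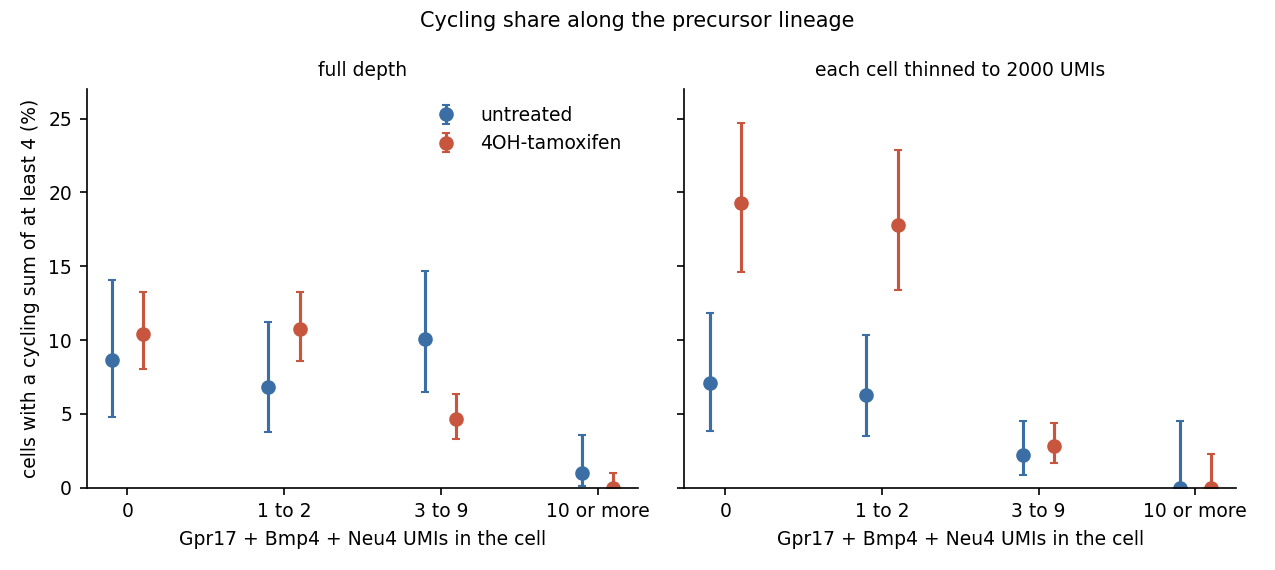
Share of cells with a cycling sum of at least 4 UMIs (percent) by the sum of Gpr17, Bmp4 and Neu4 UMIs, at full depth (left) and with each cell thinned to 2000 UMIs (right), in the untreated (blue) and the 4OH-tamoxifen library (red); bars are exact binomial 95% intervals for counting error only. The share is lowest at 10 or more UMIs in both libraries, with 1.01% and 0% at full depth.

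Dividing cells were also found outside the limit on committed genes. With the precursor and cycling sums of the rule but 3 or more committed UMIs there were 25 and 35 cells, in which Gpr17, a receptor of committed precursors, stood at 904 and 1040 CPM against 144 and 225 in members, a gap that the limit on Gpr17 itself sets. Enpp6, a gene of newly formed oligodendrocytes, was low in both, at 32.0 and 8.89 CPM against 26.95 and 5.70 in members. Mitosis lists stood at 14890 and 13048 CPM in these cells and 14841 and 12758 CPM in members.

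Against committed precursors (at least 3 committed UMIs and a cycling sum of at most 1, 389 and 1117 cells), 401 of 7077 genes (5.67%) were at least 2-fold higher in members and 173 (2.44%) lower, in both libraries. The rule separates these populations too, so the values are descriptions. All 12 mitotic kinase genes and 23 of 25 centromere genes were higher, and 8 of 11 committed genes were lower. Fyn, a kinase of maturing oligodendrocytes, stood at 0.149 (0.0990 to 0.216) and 0.162 (0.131 to 0.197) times its level in committed cells, and Bcas1 at 0.210 (0.137 to 0.309) and 0.221 (0.176 to 0.273) times. Stmn1 was 11.4-fold (8.99 to 14.3) and 7.73-fold (6.65 to 8.97) higher, while Tuba1a was lower, at 0.386 and 0.366 times. Of the precursor identity list 2 of 17 were higher and 2 lower, with Olig2 at ratios of 1.17 (0.909 to 1.497) and 1.01 (0.853 to 1.18).

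Dividing cells without any Pdgfra, C1ql1 or Cspg4 UMI numbered 13 and 61, and 11 and 44 of them held at least 3 UMIs of the microglial genes C1qa and C1qb. Against them, where the median log2 ratio of all genes was 0.34 and 0.23, 831 of 7053 genes (11.8%) were at least 2-fold higher in members and 570 (8.08%) lower. Both precursor and microglial genes entered the choice of these cells, and both populations were chosen by the same cycling sum, so the values are descriptions. All 17 precursor identity genes and 11 of 13 glutamate and GABA receptor genes were higher in members, with Gria2 at a ratio of 14.0 (3.61 to 120) and 7.67 (4.53 to 14.0), and all 10 microglial genes were lower. Of the cell cycle lists, 0 of 13 mitotic kinase, 0 of 25 spindle, 2 of 27 centromere, 1 of 18 licensing, 1 of 28 DNA synthesis and 3 of 18 cyclin genes were past 2-fold, all higher in members. In the CDK inhibitor and the DNA repair list 1 of 7 and 1 of 10 genes were past 2-fold, both lower. Ube2c had a ratio of 1.54 (1.09 to 2.22) and 1.44 (1.13 to 1.85).

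Between the libraries, members were compared over 1951 genes of at least 100 CPM in the higher and 10 UMIs in the lower library, without a test. The ratio of the 4OH-tamoxifen to the untreated library had a median of 0.908, with 9 genes at least 2-fold higher and 103 at least 2-fold lower. That limit of 10 UMIs stands for a higher CPM in the smaller untreated population, so it removed more genes that were low there. With a mean of at least 100 CPM over both libraries instead, a limit chosen after seeing the data, 22 of 1820 genes were higher and 56 lower. Among genes past the limit of 10 UMIs the largest increases were in the metallothioneins, which bind zinc and copper. Mt1 stood at 746 and 1918 CPM, a ratio of 2.57 (2.05 to 3.27), and Mt2 at 225 and 587 CPM, a ratio of 2.61 (1.72 to 4.13). Both were also higher in the non-cycling precursors of that library, 1.58-fold for Mt1 and 1.51-fold for Mt2. Brd8, Bptf, Aurkaip1 and S100a6 followed with ratios from 2.19 for S100a6 to 2.39 for Brd8.

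Among genes past the limit of 10 UMIs the largest decreases were in Igfbp7, a vascular gene, at 458 and 37.0 CPM, and the pericyte gene Rgs5, at 359 and 71.2 CPM. Vtn, a further pericyte gene, missed that limit with 9 UMIs and stood at 494 and 25.6 CPM, a ratio of 0.0519 (0.0226 to 0.106). Without the 4 members that carried pericyte genes, Igfbp7 fell from 51 and 13 UMIs to 5 and 4, Rgs5 from 40 and 25 UMIs to 3 and 3, and Vtn from 55 and 9 UMIs to 2 and 0. The next genes did not rest on those cells. Pou3f1, a transcription factor of the lineage, had a ratio of 0.224 (0.0976 to 0.497), and 0.216 without them. Ttk, a kinase of the spindle checkpoint, had a ratio of 0.254 (0.108 to 0.581) from 15 and 12 UMIs, and Mns1 of 0.247 (0.114 to 0.525). Immediate early genes, which respond to cell handling, also moved with the library, at 1644 and 841 CPM in members and 1632 and 763 CPM in non-cycling precursors, and their part in these differences was not tested.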

How the data were processed

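Single-cell suspensions of the ventral parafacial brainstem were sequenced with 10X Genomics v2 3′ chemistry, 1 library per condition. The submitters' processing notes name Cell Ranger 2.2.0, bcl2fastq 2.18.0.12 and the mouse build mm10, and the authors deposited raw UMI counts per gene and barcode, used here as they are. The filters on genes, hemoglobin and mitochondrial UMIs are those of the study.

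Members, populations and gene lists were chosen with earlier results of these data known. Counts were summed per population and library. Genes with a mean of at least 20 CPM over both populations and libraries were compared, and a gene was called at 2-fold in both libraries after 10 CPM were added. Printed ratios are of plain CPM, and list medians of CPM plus 10. Intervals are exact at 95% (Poisson, Clopper-Pearson, conditional binomial). With 1 library per group, no test was made.

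The named genes were up to 6 per list by CPM in members, called genes first. Added to these were the 12 largest and 12 smallest ratios at 50 CPM or more, taking the library nearer to 1. This ranking added 10 CPM to both levels, so its order can differ from that of the printed plain ratios. The 6 largest library ratios each way were taken at 100 CPM and 10 UMIs. Sox10 was described as a precursor marker, and Ccnd1 was chosen after its values were seen. An item among the largest ratios is not reported here. Doublets were scored with Scrublet (scanpy 1.11.5) and kept. Cells were thinned to 2000 UMIs with seed 1. Scripts ran on Python 3.11.15, NumPy 2.4.6, SciPy 1.17.1, pandas 2.3.3 and matplotlib 3.10.9 and were tested on simulated data. Gene windows came from RefSeq tables of GRCm38.p6.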

Additional observations from a re-analysis of the deposited data

How the results depend on the processing

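No paired analysis was possible because each condition had 1 library, and no replicate could be left out. Shares and ratios were held to their counting interval, list medians to a shift below the spread that counting gives the list's summed ratio, and counts to 1.5 times. Of the recomputed values that answer a comparison, 236 stayed within these limits and 74 did not. No list median past 2-fold and no ratio between the led groups changed its direction. Single genes were not scored for this. Without the cells rich in astrocyte and neuron genes, 37 of the 48 genes called lower stayed lower in both libraries. Stmn2 then went from a ratio of 0.294 to 2.33 (1.03 to 4.81) in the untreated library. List medians are log2 values, untreated first where both are given.

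The share of precursors that cycled in the 4OH-tamoxifen library was 7.86% at a cycling sum of at least 6, 24.3% at 1200 genes or more, 13.1% at 10% mitochondrial UMIs or less and 18.5% when thinned. Genes 2-fold lower numbered 25 with a precursor sum of at least 4, 128 at 1200 genes, 27 at 10% mitochondrial UMIs, 17 by the mean of each cell's CPM, 91 with 1 CPM added, 94 at a mean of 5 CPM and 19 at 50 CPM, where 144 were higher.

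For spindle genes the median was 2.98 (untreated) at a sum of 3, 3.06 and 2.52 at 6, 2.997 and 2.54 without Hist1h2ap, 3.09 and 2.56 with a precursor sum of 4, 3.02 (untreated) at 1200 genes, 3.05 and 2.54 against cells with a sum of 0, 4.46 and 3.77 with 1 CPM added and 3.25 and 3.02 at 50 CPM. For centromere genes it was 2.82 (4OH-tamoxifen) at a sum of 6, 2.73 (untreated) thinned, 3.28 (untreated) against a sum of 0, 3.73 and 3.96 with 1 CPM added, 2.68 (untreated) at 5 CPM and 3.30 and 3.53 at 50 CPM. Mitotic kinases gave 2.83 (4OH-tamoxifen) with a precursor sum of 4, 4.61 and 4.03 with 1 CPM added and 3.37 and 3.12 at 50 CPM.

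DNA synthesis gave 1.32 (untreated) without Hist1h2ap, 1.82 (untreated) against a sum of 0, 1.93 and 1.81 with 1 CPM added and 1.57 (4OH-tamoxifen) at 50 CPM. Licensing gave 1.21 (4OH-tamoxifen) at a sum of 6, 1.68 (untreated) against a sum of 0, and 1.59 with 1 CPM added and 1.18 at 5 CPM (both 4OH-tamoxifen). Precursor identity, near 0 throughout, gave −0.0083 and −0.10 with a precursor sum of 4, 0.24 (4OH-tamoxifen) at 1200 genes, −0.087 and −0.030 at 10% mitochondrial UMIs, −0.16 and 0.17 thinned and −0.028 and −0.031 by the mean of each cell's CPM.

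Alternatives chosen after seeing the data left out cells with pericyte genes, which gave 1.20 for licensing (4OH-tamoxifen), or with at least 10 UMIs of astrocyte and neuron genes, which gave −0.25 and −0.092 for precursor identity, 1.14 for licensing (4OH-tamoxifen), 1.76 for DNA synthesis (untreated) and 2.83 and 2.81 for centromere genes. Also added was thinning of the lineage bins, with 2.23% and 0% (untreated, 3 to 9 and 10 or more UMIs) and 19.3%, 17.8% and 2.82% (4OH-tamoxifen, the first 3 bins), the precursor sum in every bin, with 8.08% (4OH-tamoxifen, 3 to 9 UMIs), and a mean of 100 CPM over both libraries, with 22 genes 2-fold higher and 56 lower in the 4OH-tamoxifen library. Thinning gave 0.778 for replication genes in the untreated led groups and 185 genes 2-fold lower in the 4OH-tamoxifen library. The cause was not tested.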
